A study of Mus musculus with 16 samples.

Results

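The 10 genes examined here code for kinases and RNA-binding proteins of pre-mRNA splicing: the Cdc2-like kinases Clk1, Clk2, Clk3 and Clk4, the splicing activators Tra2a and Tra2b, the spliceosome factor Cwc22, and the SR proteins Srsf3, Srsf5 and Srsf7. They were found by their symbols in the FPKM table of every library, 10 of 16250 symbols listed in any table and of 13396 listed in all 16. FPKM is a count of fragments divided by transcript length and by the size of the library. The genes were chosen by their EE and SH values in these libraries, some of which differed, so every EE and SH value of the 10 genes below is a description with no test. All 10 were listed in all 16 libraries and passed the main filter on low values, a mean of 1 FPKM or more, in every comparison. Clk2 did not reach the alternative minimum of 5 FPKM.

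As background, SR proteins carry long runs of serine and arginine and bind exons to help the spliceosome recognise them. Clk kinases phosphorylate those runs in the nucleus, which releases SR proteins from storage speckles, and the Clk1 transcript itself keeps introns in the nucleus until it is spliced on demand. Tra2 proteins bind purine-rich exonic sequences next to SR proteins, and Cwc22 recruits the core of the exon junction complex, the mark that splicing leaves on mRNA, to the spliceosome. Many genes of these families limit their own protein by including an exon or keeping an intron that sends the transcript to decay.

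The libraries came from wild-type (WT) mouse fetuses at embryonic day 18.5. The exposed groups had an enriched environment (EE), which the series title places before birth, and their controls had standard habitation (SH); the study asked how the fetal brain transcriptome differed between them. There were 5 EE and 5 SH libraries of cortex and 3 EE and 3 SH libraries of hippocampus. The labels name neither strain, litter nor fetus, so libraries may share a litter, and p-values measure only the spread between these libraries.

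Cortex replicates 1 to 3, cortex replicates 4 and 5, and hippocampus are kept apart as 3 blocks, because their tables list different numbers of genes (15996, 13448 and 15247). Reads recovered from the steps of the FPKM values numbered 16362823 to 22289472 per library for cortex replicates 1 to 3, 12267290 to 13078302 for cortex replicates 4 and 5, and 17104360 to 22131405 for hippocampus. They put 683 to 1788 reads on Clk1, 275 to 848 on Cwc22, 820 to 2416 on Tra2a and only 80 to 263 on Clk2, and the counting error of Clk2 reached 11.2%. Cortex SH replicate 3 stood apart, with a summed FPKM of 511438 against 339726 to 396658 in the other libraries, and the results it moves are given with and without it. The cortical and hippocampal markers were listed in all 16 libraries. The summed level of the 4 hippocampal markers was 16.9 to 47.8 FPKM in hippocampus against 5.71 to 10.2 FPKM in cortex. That of the cortical markers was 303 to 437 FPKM in hippocampus and 240 to 394 FPKM in cortex, so it did not set the tissues apart. The 5 choroid plexus markers summed to 40.6 to 10474 FPKM in EE hippocampus and 41.0 to 16925 FPKM in SH hippocampus, and to 10.5 to 694 FPKM in EE cortex and 12.998 to 285 FPKM in SH cortex; Ttr, Kl and Clic6 were listed in all 16 libraries and Folr1 and Otx2 in 12. The part of choroid plexus tissue in the results was not tested.

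Promoters are shown for Tra2a, Cwc22 and Clk4, since Tra2a was the gene with the higher level in EE, Cwc22 was one of the 2 genes with the lower level, and Clk4, the closest relative of Clk1 in the set, differed little. Each runs from 250 bases before to 50 bases after the annotated start (RefSeq, GRCm38.p6), 5′ to 3′ on the strand of the gene, and 9 of the 10 genes had one, all but Clk1. Capitals mark TGACG and its reverse complement CGTCA, the core letters of the cAMP response element (CRE); where both overlap they spell the whole element TGACGTCA. The Tra2a window lies at chr6:49264003-49264302 on the minus strand, the Cwc22 window at chr2:77946307-77946606 on the minus strand, and the Clk4 window at chr11:51262864-51263163 on the plus strand.
Tra2a: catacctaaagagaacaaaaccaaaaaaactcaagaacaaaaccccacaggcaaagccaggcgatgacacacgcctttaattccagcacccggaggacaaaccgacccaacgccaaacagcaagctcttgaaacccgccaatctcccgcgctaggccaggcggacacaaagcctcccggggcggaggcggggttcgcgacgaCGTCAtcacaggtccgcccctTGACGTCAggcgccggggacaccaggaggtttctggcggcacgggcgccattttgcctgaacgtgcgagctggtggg
Cwc22: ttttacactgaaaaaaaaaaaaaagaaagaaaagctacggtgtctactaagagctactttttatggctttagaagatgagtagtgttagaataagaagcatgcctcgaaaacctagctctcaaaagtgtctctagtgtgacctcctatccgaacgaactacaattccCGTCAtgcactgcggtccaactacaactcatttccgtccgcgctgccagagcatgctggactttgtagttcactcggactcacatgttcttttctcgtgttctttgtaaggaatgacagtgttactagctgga
Clk4: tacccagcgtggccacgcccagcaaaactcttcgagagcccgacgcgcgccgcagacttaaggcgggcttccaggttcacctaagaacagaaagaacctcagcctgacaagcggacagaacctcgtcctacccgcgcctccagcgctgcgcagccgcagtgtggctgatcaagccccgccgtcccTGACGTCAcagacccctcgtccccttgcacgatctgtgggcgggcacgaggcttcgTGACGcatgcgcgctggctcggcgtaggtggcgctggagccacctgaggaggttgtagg

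On either strand, the core was in 8 of the 9 promoters, all but that of Srsf7, against 20.8% of 32851 promoters of the table and 30.3% of the 13128 promoters of genes listed in all 16 libraries. The whole element was in 2 of the 9, those of Tra2a and Clk4, against 1.79% and 3.06%. The AP-1 motif TGANTCA was in 0 of the 9, against 7.81% and 4.73%, and the EGR motif GCGTGGGCG was in 0, against 0.612% and 1.13%. These counts describe letters in the windows. With the core in 8 of the 9 promoters and no promoter for Clk1, its presence could not separate the genes by their EE and SH values.

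Clk1 was lower in EE than in SH in each of the 3 blocks. In cortex, EE replicates 1 to 5 had 14.6, 14.0, 11.5, 21.02 and 16.8 FPKM, and SH replicates 1 to 5 had 23.0, 21.7, 19.0, 27.3 and 26.5 FPKM. In hippocampus, EE replicates 1 to 3 had 19.6, 18.9 and 16.3 FPKM, and SH replicates 1 to 3 had 32.3, 28.8 and 27.6 FPKM. The 2 groups did not overlap within any block, and 8 of 8 EE libraries lay below the SH mean of their block, although EE cortex replicate 4 was above the lowest SH cortex library of the other set. The ratio of the EE mean to the SH mean was 0.627 in cortex replicates 1 to 3, 0.704 in cortex replicates 4 and 5 and 0.617 in hippocampus. Fitted over all 16 libraries, the difference was -0.61 ± 0.07 (log2 FPKM + 1, SE). In bulk tissue, fewer cells of a type that holds the transcript and less RNA per cell cannot be told apart. Clk1 lies on chromosome 1 of mm10 from 58410189 to 58424066 on the minus strand, where GENCODE M21 gives it 13 transcripts, 7 of them with a retained intron and 1 protein-coding.

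Cwc22 was the other gene that was lower in EE in every block. In cortex, EE replicates 1 to 5 had 5.16, 5.67, 4.36, 6.47 and 6.01 FPKM, and SH replicates 1 to 5 had 8.78, 7.78, 7.68, 10.5 and 11.2 FPKM. In hippocampus, EE replicates 1 to 3 had 7.81, 7.84 and 5.75 FPKM, and SH replicates 1 to 3 had 9.82, 9.42 and 12.3 FPKM. The groups did not overlap within a block, and over all 5 replicates of cortex every EE library was below every SH library. The ratio of means was 0.627, 0.575 and 0.680 in the same order of blocks, and the difference over 16 libraries was -0.59 ± 0.08 (SE). Cwc22 lies on chromosome 2 from 77881159 to 77946375 on the minus strand and overlaps Gm13727 on the same strand; as background, this segment is duplicated in some mouse strains, and neither the strain nor the handling of reads that map to several places is given, so its values may hold reads of more than 1 copy.

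Tra2a was the gene with the opposite direction. In cortex, EE replicates 1 to 5 had 33.9, 27.5, 33.2, 37.8 and 42.7 FPKM, and SH replicates 1 to 5 had 25.5, 27.8, 19.3, 29.96 and 24.7 FPKM. In hippocampus, EE replicates 1 to 3 had 38.6, 40.4 and 39.7 FPKM, and SH replicates 1 to 3 had 31.3, 32.3 and 24.2 FPKM. All 8 EE libraries were above the SH mean of their block, and the groups overlapped only in cortex replicates 1 to 3, where EE replicate 2 lay just below SH replicate 2. The ratio of means was 1.305, 1.47 and 1.35, and the difference over 16 libraries was 0.44 ± 0.09 (SE). Without cortex SH replicate 3, which held the lowest Tra2a value, it was 0.40 ± 0.08, while Clk1 was at -0.64 ± 0.07 and Cwc22 at -0.60 ± 0.08. Tra2a lies on chromosome 6 from 49243924 to 49264033 on the minus strand and overlaps Gm43980 on the opposite strand.

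**Figure D1:**
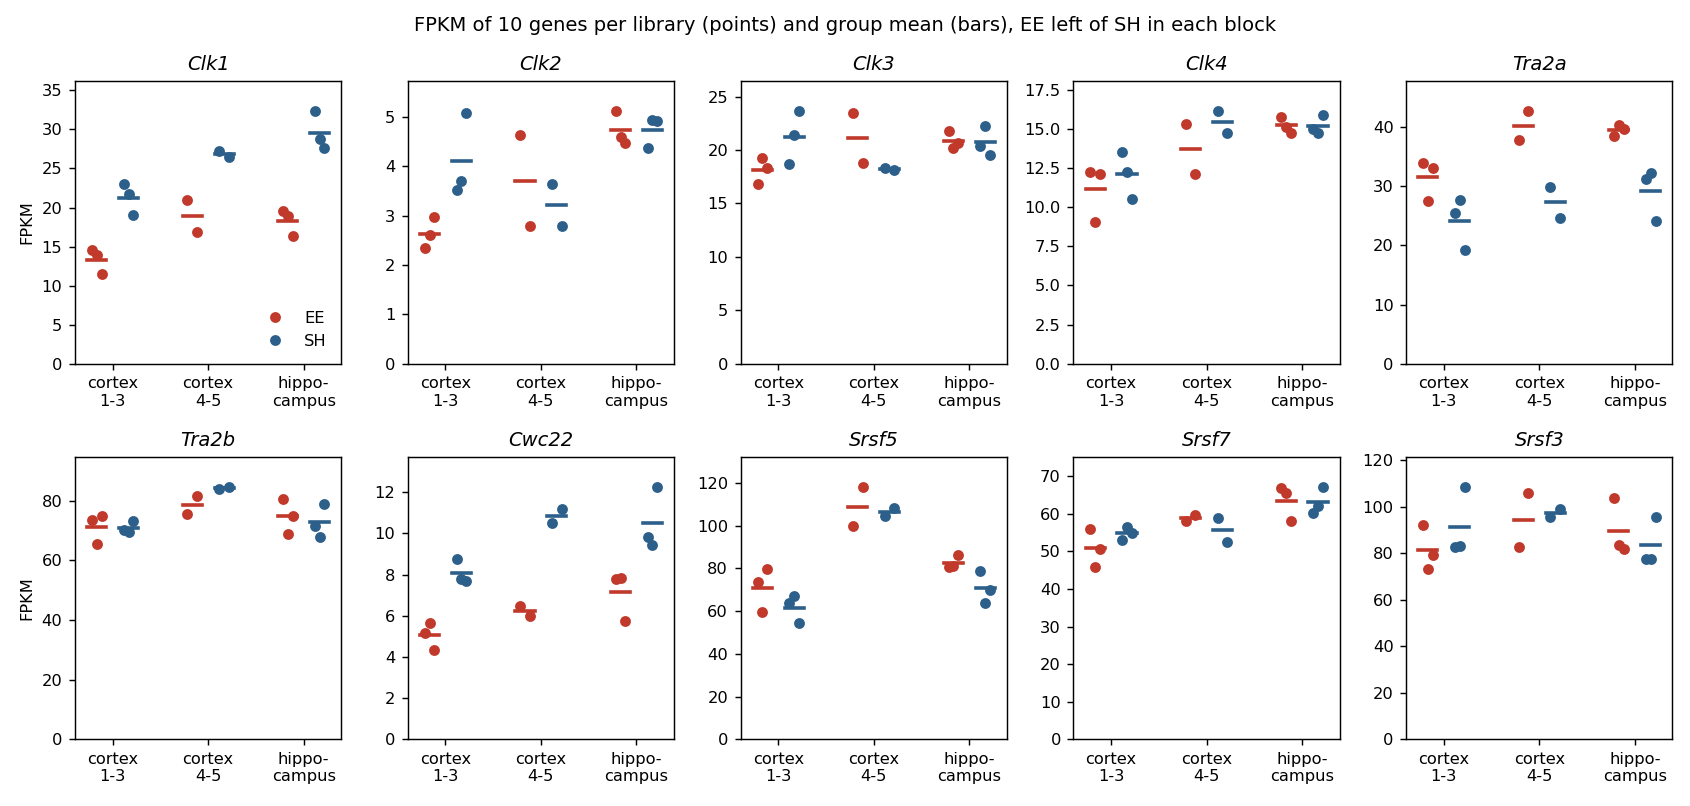
FPKM of each of the 10 genes (vertical axes from 0) in each library (points) with the group mean (horizontal bars), EE left of SH in cortex replicates 1 to 3, cortex replicates 4 and 5 and hippocampus. Clk1 and Cwc22 lie lower in EE in all 3 blocks without overlap. Tra2a lies higher, with overlap in cortex replicates 1 to 3, and the other 7 genes overlap in at least 1 block.

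The other 3 Clk kinases did not share the pattern of Clk1. Clk4 had 9.06 to 15.3 FPKM in the 5 EE cortex libraries (median 12.1) and 10.5 to 16.1 FPKM in the 5 SH cortex libraries (median 13.5), and 14.8 to 15.7 FPKM in EE hippocampus against 14.7 to 15.9 FPKM in SH hippocampus. Its block differences were -0.11, -0.17 and 0.00 on the log2 scale, with overlap in every block. Clk3 had 16.9 to 23.5 FPKM in EE cortex and 18.1 to 23.6 FPKM in SH cortex, and 20.2 to 21.8 FPKM in EE hippocampus against 19.5 to 22.3 FPKM in SH hippocampus. Its differences were -0.21, 0.20 and 0.01, opposite in the 2 sets of cortex, and in replicates 4 and 5 both EE libraries were above both SH libraries. Clk2, the lowest of the 10, had 2.34, 2.60 and 2.97 FPKM in EE cortex replicates 1 to 3, all below the 3.53, 3.71 and 5.08 FPKM of SH cortex replicates 1 to 3, but its differences in cortex replicates 4 and 5 and in hippocampus were 0.14 and -0.00. Clk3 overlaps Edc3, and Clk4 overlaps BC049762, both on the opposite strand, and for them as for Tra2a, without a stated strand setting reads of each pair cannot be told apart. How reads shared by related genes such as Clk1 and Clk4 were counted is not given either.

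Tra2b, the paralog of Tra2a, differed by 0.00, -0.10 and 0.04 in the 3 blocks. It had 65.3 to 81.5 FPKM in EE cortex and 69.4 to 84.5 FPKM in SH cortex, and 68.9 to 80.6 FPKM in EE hippocampus against 67.7 to 78.9 FPKM in SH hippocampus. Of the SR proteins, Srsf5, which activates exons in response to insulin and other signals, had 80.5, 81.3 and 86.3 FPKM in EE hippocampus against 78.7, 64.0 and 70.1 FPKM in SH hippocampus. Those 2 groups did not overlap, and the Srsf5 difference was 0.22 in hippocampus, 0.19 in cortex replicates 1 to 3 and 0.03 in cortex replicates 4 and 5. Srsf7 and Srsf3, which bind exons and also take part in mRNA export, overlapped in every block, with differences of -0.11, 0.08 and 0.01 for Srsf7 and -0.16, -0.05 and 0.10 for Srsf3.

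**Figure D2:**
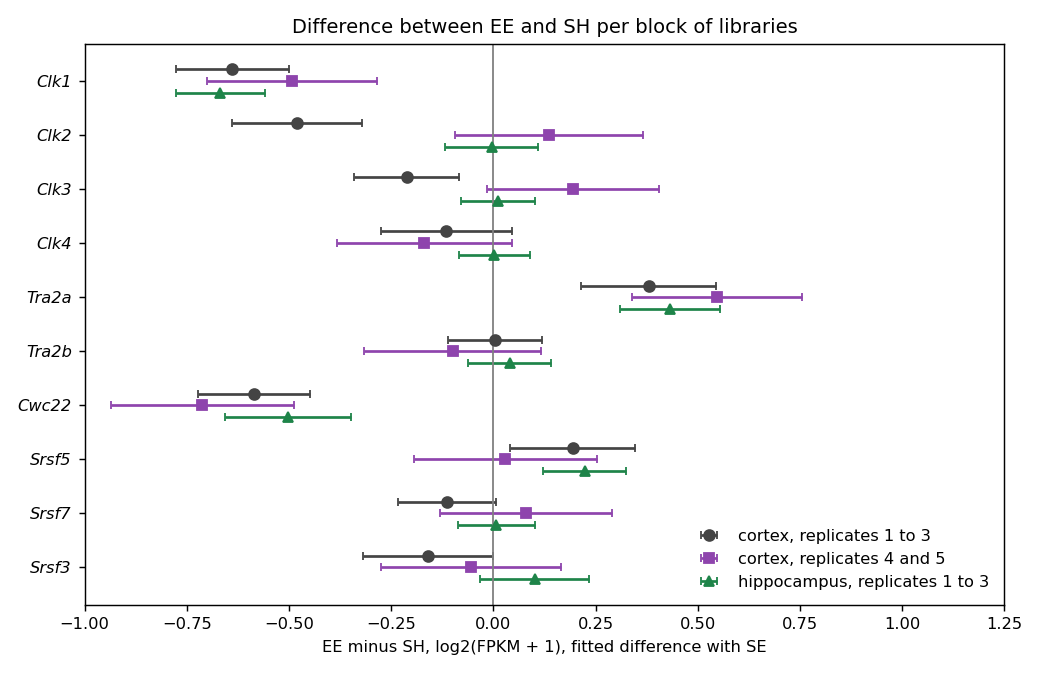
Fitted EE minus SH difference of each gene on log2(FPKM + 1) (horizontal axis, with SE as bars) in cortex replicates 1 to 3 (circles), cortex replicates 4 and 5 (squares) and hippocampus (triangles). Clk1 (-0.64, -0.49 and -0.67) and Cwc22 (-0.59, -0.71 and -0.50) lie left of 0 and Tra2a (0.38, 0.55 and 0.43) right of it in each block, while Clk2 and Clk3 change side between blocks.

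Calls of EE against SH were counted over the whole table. The 10 genes were chosen with these differences known, so no such call is given for them. In cortex, 0.00798% of 12539 genes were called by limma. In hippocampus 0 of 13344 genes (0%) were called by limma or limma-voom. By limma 503 were at an unadjusted p under 0.05, fewer than the 667.2 expected if no gene differed. Over all 16 libraries 42 of 12672 genes (0.331%) were called, 4 higher (0.0316%) and 38 lower (0.300%). With 1 library left out the count of called genes ran from 17 to 228, and it was 228 without cortex SH replicate 3. The 16-library fit holds the libraries of both single-tissue fits. Genes whose EE libraries lay below the SH libraries without overlap in all 3 blocks made up 0.742% of the 12672, Clk1 and Cwc22 among them, and those above made up 0.0947%, with none of the 10. The EE difference of the 10 genes in hippocampus minus that in cortex replicates 1 to 3 ran from -0.03 to 0.48. By limma or limma-voom the test of that difference called 0 of 13158 genes. By limma 990 were at an unadjusted p under 0.05, where 657.9 would be expected if no gene differed. On simulated data the hippocampus fit called 18% of genes shifted by 0.5 on the log2 scale, and the test of that difference 0%.

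Ratios within a library, which depend neither on the total nor on the scaling, separated EE from SH for some pairs. The ratio of Clk1 to Clk4 in FPKM spanned 0.947 to 1.54 across the 8 EE libraries and 1.69 to 2.16 across the 8 SH libraries, with no overlap over both tissues and all sets. The ratio of Clk1 to Tra2a spanned 0.345 to 0.555 across EE libraries and 0.783 to 1.14 across SH libraries, also with no overlap. The ratio of Cwc22 to Clk4 spanned 0.360 to 0.626 across EE libraries and 0.634 to 0.771 across SH libraries. These ranges nearly touched, a gap within the counting error, which reached 6.03% for Cwc22 and 4.17% for Clk4. The ratio of Clk1 to Cwc22, by contrast, covered nearly the same range, 2.41 to 3.25 across EE libraries and 2.25 to 3.29 across SH libraries. Within the Tra2 pair, the ratio of Tra2a to Tra2b spanned 0.422 to 0.586 across EE libraries and 0.263 to 0.477 across SH libraries, and these ranges overlapped. The pairs were picked with the EE and SH values known.

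**Figure D3:**
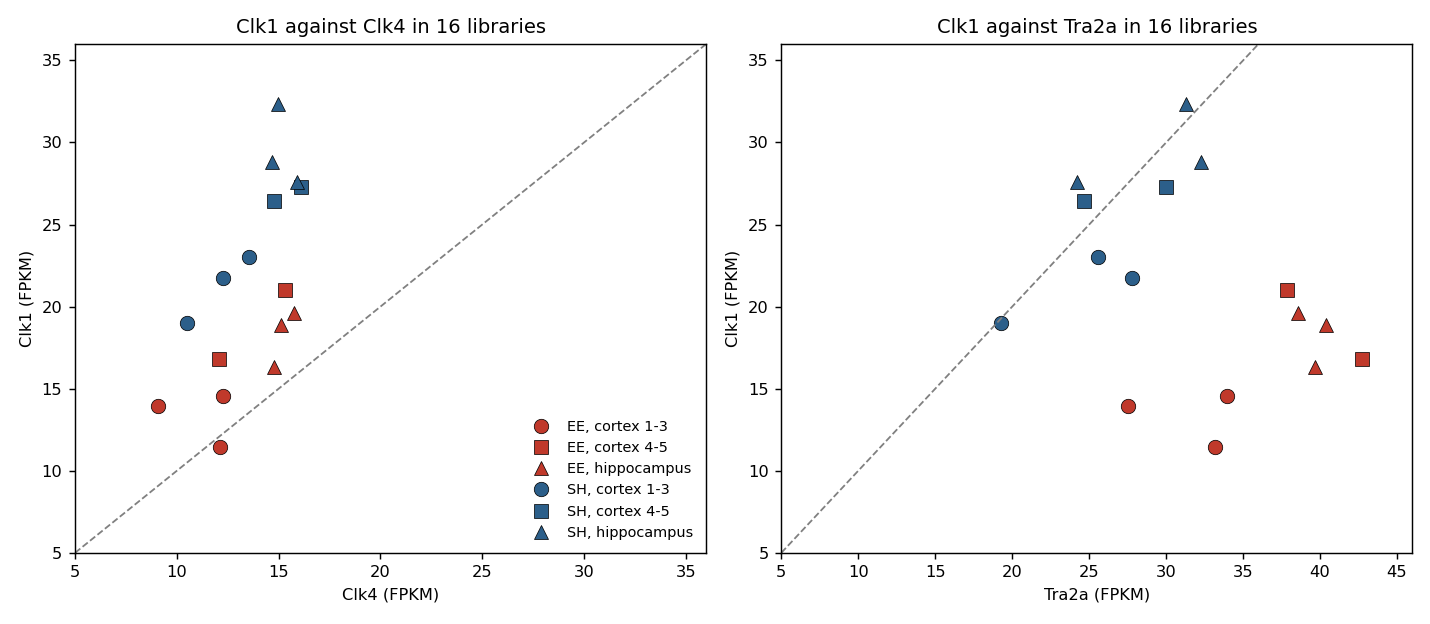
FPKM of Clk1 (vertical axes) against Clk4 (left) and Tra2a (right) in the 16 libraries, EE in red and SH in blue, with symbols for the block and a dashed line of equal FPKM. At a like level of Clk4 the EE libraries lie below the SH libraries (Clk1 to Clk4 ratio 0.947 to 1.54 in EE and 1.69 to 2.16 in SH), and against Tra2a both groups lie apart.

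The order of levels among the 10 genes also differed. In every group Srsf3 had the highest median and Clk2 the lowest, and the SR proteins and Tra2b stood above Tra2a. In EE, Clk3 (median 18.8 FPKM in cortex and 20.6 FPKM in hippocampus) ranked above Clk1 (14.6 and 18.9 FPKM), with ranges that overlapped in cortex and not in hippocampus. In SH, Clk1 (23.0 FPKM in cortex and 28.8 FPKM in hippocampus) ranked above Clk3 (18.7 and 20.4 FPKM), again with overlap in cortex and none in hippocampus. The ranges of Srsf3 and the gene next below it, Srsf5 in EE and Tra2b in SH, overlapped in both tissues.

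Library composition differed between EE and SH in part, and the length trend did so in opposite directions between blocks. The rank correlation between a gene's deviation from its block mean and its transcript length was taken across genes within a library. For cortex replicates 1 to 3 it lay between 0.39 and 0.60 for EE libraries and between -0.69 and 0.26 for SH libraries. The -0.69 was SH replicate 3, which also enters the block mean, while SH replicates 1 and 2 were at 0.22 and 0.26. For cortex replicates 4 and 5 it lay between -0.34 and -0.23 (EE) and between 0.27 and 0.41 (SH), and for hippocampus between -0.47 and 0.06 (EE) and between 0.05 and 0.21 (SH). After a length and GC trend was taken out of each library, the 16-library differences of Clk1, Cwc22 and Tra2a were -0.58 ± 0.07, -0.57 ± 0.08 and 0.45 ± 0.09. After median-of-ratios scaling they were -0.59, -0.57 and 0.46. The striatal markers Drd1, Drd2, Ppp1r1b and Adora2a summed to 40.1 to 64.1 FPKM in EE cortex and 54.2 to 71.7 FPKM in SH cortex, and to 8.49 to 16.6 FPKM in EE hippocampus and 6.05 to 27.8 FPKM in SH hippocampus, all 4 listed in every library, and their part in the results was not tested. The 4 meningeal markers were listed in every library and summed to 51.4 to 104 FPKM in EE cortex and 84.5 to 114 FPKM in SH cortex, and to 30.6 to 100.2 FPKM in EE hippocampus and 24.5 to 115.6 FPKM in SH hippocampus; their part was not tested either. Of the 4 striatal markers, Drd1 alone was among the 38 genes called lower over 16 libraries. The median of the striatal sum was 47.6 FPKM in EE and 69.8 FPKM in SH for cortex replicates 1 to 3. It was 52.1 FPKM in EE and 54.6 FPKM in SH for cortex replicates 4 and 5. In hippocampus it was higher in EE, at 14.0 FPKM against 7.99 FPKM in SH.

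Calls were rare among the other genes of splicing, as they were among all genes. The contrast with the genes above follows in part from the choice of those genes by their EE and SH values. The lists of other genes were also chosen with earlier results of these data known. Of 152 genes on 7 lists, 148 were tested over 16 libraries and 1 passed, on the lower side, against 42 of all 12672 tested genes (0.331%). The gene that passed was Cwc25, which joins the spliceosome at the first catalytic step. Cwc25 had 5.22, 5.66, 5.24, 6.03 and 4.95 FPKM in EE cortex against 7.84, 6.85, 5.99, 9.76 and 8.51 FPKM in SH cortex. In hippocampus it had 6.41, 6.79 and 7.22 FPKM in EE against 8.66, 8.33 and 9.91 FPKM in SH. It was lower in 8 of 8 EE libraries without overlap in any block, by -0.41 ± 0.08 (SE; limma, adjusted p = 0.0337), and with 1 library left out the adjusted p ran from 0.00804 to 0.0978 and missed the threshold in 12 of 16 fits. Crnkl1, a scaffold of the same catalytic complex, averaged 8.38 ± 1.598 FPKM over EE libraries of both tissues and 10.9 ± 2.19 FPKM over SH libraries (SD, n = 8 each), a difference of -0.34 that did not pass (limma, adjusted p = 0.143). Upf1, the helicase of nonsense-mediated decay, averaged 14.7 ± 1.82 FPKM over EE libraries and 17.2 ± 2.57 FPKM over SH libraries, a difference of -0.21 that did not pass either (adjusted p = 0.163, limma). Both were below the SH mean of their block in 8 of 8 EE libraries.

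By list, 0 of 8 other SR proteins, 0 of 14 tested SR and related kinases, 0 of 23 SR-related cofactors, 0 of 13 genes of the exon junction complex and nonsense-mediated decay, 1 of 40 spliceosome genes, 0 of 26 hnRNP and PTB genes and 0 of 24 tested neuronal splicing regulators passed over 16 libraries. Their median differences were 0.01, -0.02, 0.05, -0.10, -0.06, 0.03 and 0.13, and the median of all tested genes was -0.01. These medians moved with cortex SH replicate 3: without it, that of the spliceosome genes was -0.00, that of the kinases -0.12 and that of the neuronal regulators 0.05. The higher genes with the smallest p were Pnisr (0.41), Khdrbs3 (0.22) and Hnrnpu (0.21), with adjusted p-values of 0.374, 0.376 and 0.427 by limma. No SR protein or Clk relative outside the 10 genes passed, which at this number of libraries does not show that none differed.

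**Figure D4:**
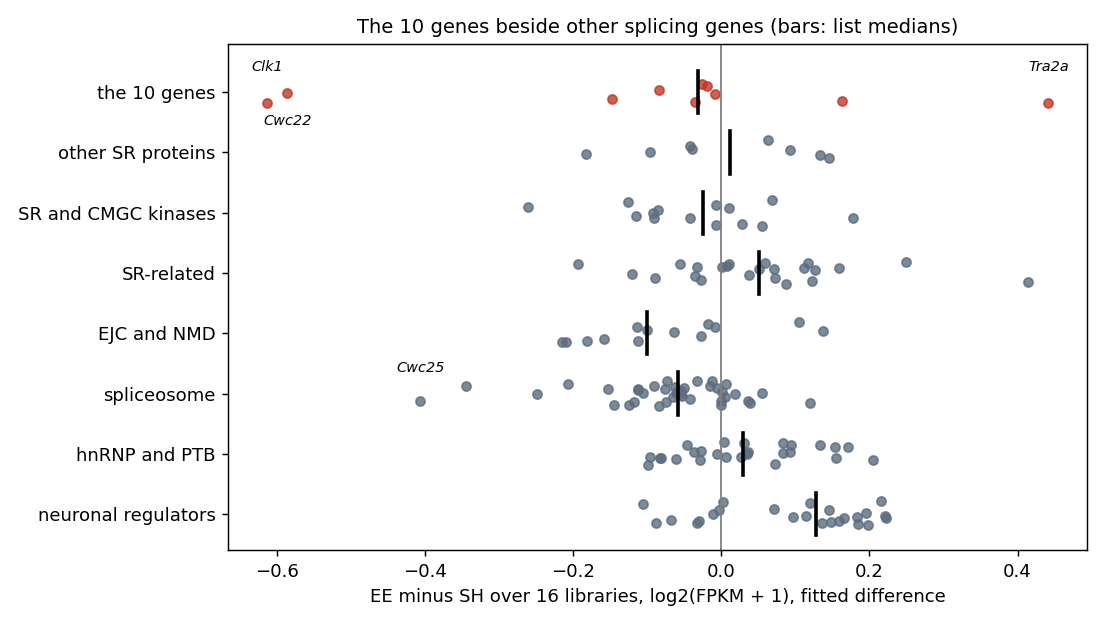
EE minus SH difference over 16 libraries (horizontal axis, log2(FPKM + 1)) of each gene (points) of the 10 genes and of the 7 lists of other splicing genes, with list medians as bars. Clk1 (-0.61), Cwc22 (-0.59) and Tra2a (0.44) lie at the edges, and Cwc25 (-0.41) is the called gene of the other lists. The 10 genes were chosen with these differences known.

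The tissue comparison did not enter the choice of the genes and was tested. It set hippocampus replicates 1 to 3 against cortex replicates 1 to 3, EE and SH together with a term for treatment. Among 13158 genes, 24.6% were called higher in hippocampus and 10.9% lower, 35.4% in all, and of the 10 genes 6 were called, all higher in hippocampus. Clk4 was at 14.7 to 15.9 FPKM in the 6 hippocampus libraries (median 15.04) and 9.06 to 13.5 FPKM in the 6 cortex libraries (median 12.2), with no overlap, a difference of 0.37 ± 0.09 (SE; limma, adjusted p = 0.00742). Clk1 was higher in hippocampus by 0.44 ± 0.09 (limma, adjusted p = 0.00185), without overlap between the tissues within EE or within SH. Cwc22 was higher by 0.38 ± 0.10 (limma, adjusted p = 0.0126) and Clk2 by 0.42 ± 0.12 (limma, adjusted p = 0.0136). Srsf7 was at 58.2 to 67.1 FPKM in hippocampus (median 63.7) and 45.8 to 56.6 FPKM in cortex (median 54.0), higher by 0.26 ± 0.08 (limma, adjusted p = 0.0186), and without hippocampus EE replicate 2 this call was lost (limma, adjusted p = 0.0501). Tra2a was higher by 0.30 ± 0.10 (limma, adjusted p = 0.0420), a call lost in 9 of 12 fits with 1 library left out. Srsf5 (0.21, adjusted p = 0.0882), Clk3 (0.08, adjusted p = 0.461), Tra2b (0.05, adjusted p = 0.624) and Srsf3 (0.01, adjusted p = 0.972) did not pass by limma.

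Of these 6 calls, that of Clk2 was the 1 that held against the other set of cortex libraries, a comparison added after the values were seen. It called 3539 genes of the whole table, 2297 higher and 1242 lower in hippocampus. With cortex replicates 4 and 5 in place of 1 to 3, the difference was 0.04 ± 0.09 for Clk1 (limma, adjusted p = 0.767), 0.06 ± 0.09 for Clk4 (0.615), 0.05 ± 0.11 for Cwc22 (0.763), 0.03 ± 0.10 for Tra2a (0.825) and 0.14 ± 0.08 for Srsf7 (0.192). Clk2 stayed higher in hippocampus by 0.38 ± 0.12 (limma, adjusted p = 0.0399), and Srsf5 was lower in hippocampus by -0.49 ± 0.09 (limma, adjusted p = 0.00235), since its cortex values were 99.8 and 118 FPKM in EE and 104.5 and 108 FPKM in SH replicates 4 and 5. Scaling mattered too. The median of all tested genes was 0.09 in the first fit and -0.01 after median-of-ratios scaling, which turned the split of calls, 3233 higher and 1428 lower, into 2289 higher and 2108 lower and left Clk1, Clk4 and Cwc22 called but not Clk2 (limma, adjusted p = 0.0619); Clk3, Tra2b and Srsf3 were then on the lower side. After quantile normalization, with 2155 genes called higher and 2066 lower, Clk1, Clk4 and Srsf7 were called, Srsf5 was called as well (0.31; limma, adjusted p = 0.0388), and Clk2 (0.21, adjusted p = 0.310), Cwc22 (0.20, adjusted p = 0.131) and Tra2a (0.28, adjusted p = 0.0542) were not. Relative to the median of all genes, Clk1 was 0.35 higher in the first fit and 0.34 after scaling. The tissue and the block of libraries cannot be told apart in either fit.

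**Figure D5:**
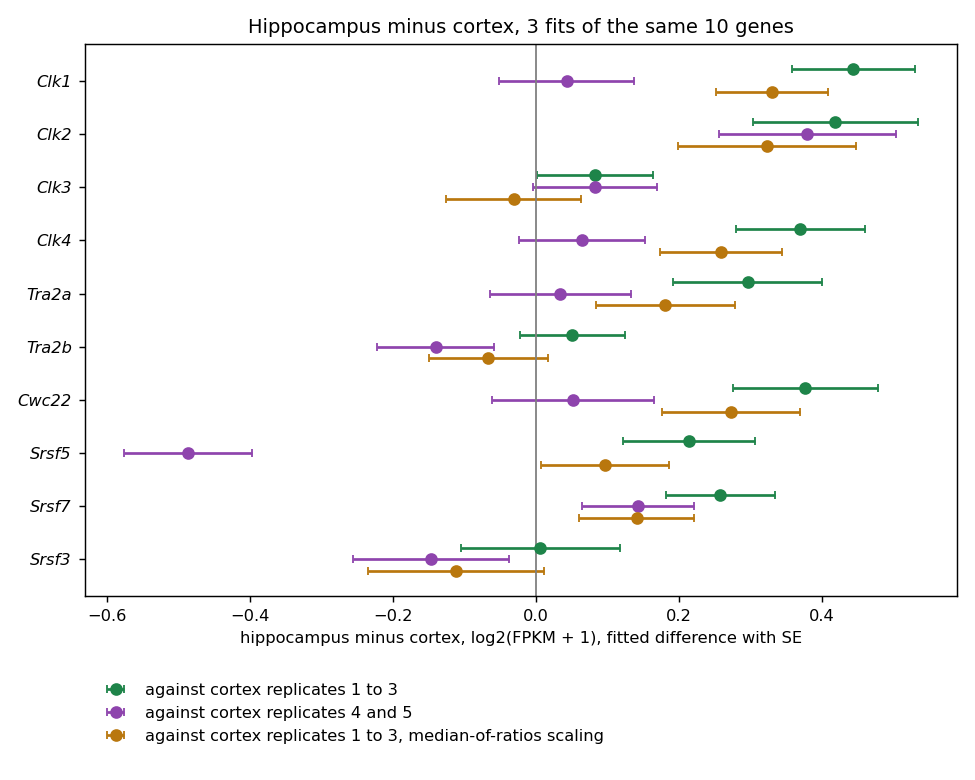
Hippocampus minus cortex difference of each gene on log2(FPKM + 1) (horizontal axis, with SE as bars), against cortex replicates 1 to 3 (green), against cortex replicates 4 and 5 (purple) and against replicates 1 to 3 after median-of-ratios scaling (orange). Clk1 lies at 0.44, 0.04 and 0.33, Clk2 at 0.42, 0.38 and 0.32, and Srsf5 at 0.21, -0.49 and 0.10.

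Of the 148 other splicing genes tested in the first tissue fit, 44 were higher in hippocampus and 6 lower, against 24.6% and 10.9% of all genes. The SR-related cofactors had 16 of 23 genes higher and 0 lower, with a median of 0.45, and the SR and related kinases 6 of 14 higher. Ccnl2, a cyclin that works with kinases of splicing factors, was at 22.2 ± 1.39 FPKM in hippocampus and 12.2 ± 1.97 FPKM in cortex (SD, n = 6 each), and Rsrp1, an arginine- and serine-rich protein, at 91.8 ± 6.32 and 52.4 ± 7.81 FPKM (limma, adjusted p = 7.39e-05 and 9.25e-05). Among the 24 neuronal regulators 4 were higher and 5 lower, and Celf4, which binds mRNA in excitatory neurons, was lower by -0.79 ± 0.15 (limma, adjusted p = 0.00188). Against cortex replicates 4 and 5, 26 of the other splicing genes were called, among 3539 genes in all. Ccnl2, Rsrp1 and Celf4 were among the 26, in the same directions. The difference of Ccnl2 was 0.40 there (limma, adjusted p = 0.0201) and 0.83 in the first fit, that of Rsrp1 0.64 (limma, adjusted p = 0.00955) and 0.81, and that of Celf4 -0.76 (limma, adjusted p = 0.00478) and -0.79.

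Across libraries, the genes did not vary as 1 unit. After the mean of each tissue, set and treatment group was subtracted, the 36 pairs of the 9 genes with a mean of at least 5 FPKM, which leaves out Clk2, had a median Pearson r of 0.05 over 16 libraries, from -0.65 to 0.77, and 21 were positive. Clk1 had r of 0.50 with Cwc22 (0.48 without cortex SH replicate 3), 0.36 with Clk4 and 0.21 with Tra2a, and r with Clk1 was lower than that of Cwc22 for 90.8% of genes. Of 8581 genes compared, Cdk8, the kinase of the Mediator complex, was the most like Clk1 (r = 0.89, Spearman rho 0.86), followed by Trmt1l (0.86), Poc1b (0.85), Plekha3 (0.84) and Bub1b (0.84). Got2 (-0.89), Prickle4 (-0.88) and Kcnab2 (-0.88) ran most against it. None of the 5 was among the genes called in EE against SH. Subtracting the group means left fewer independent values than 16, and the named genes are the extremes of 8581. Whether their r exceeds the largest r that unrelated genes would give was not tested, so they are a description. All these correlations describe libraries that share depth, length trend and dissection within a block.

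What 9 of the 10 genes share beyond the choice is their transcript models: all but Cwc22 have both a retained-intron and a nonsense-mediated-decay transcript in GENCODE M21, as do 22.7% of the 12469 protein-coding genes listed in all 16 libraries. The values are per gene, so a difference in the level of Clk1 or Tra2a cannot be assigned to the coding or the non-coding transcripts.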

How the data were processed

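RNA was sequenced from 16 libraries of fetal mouse brain, and the authors deposited 1 table of gene symbols and FPKM values per library. Per the submitters' processing notes, the tools named were StringTie 1.3.4d, HISAT2 2.0.4, DESeq2, edgeR and cutadapt 1.9, without their roles, and the build was mm10. The annotation, the strand setting and the filter behind the listed genes are not given in the sources used here. A gene not listed in a library was treated as missing.

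Two-sided tests used limma 3.58.1 (lmFit, eBayes with trend) in R 4.3.3 on log2(FPKM + 1), over genes listed in every library of a fit and averaging 1 FPKM or more, with Benjamini-Hochberg adjustment over all tested genes and a threshold of 0.05. Log2 differences are on this scale, which understates changes of low genes. The cortex model had a term for the replicate set (1 to 3, or 4 and 5), that of all 16 libraries a term for the block (cortex replicates 1 to 3, cortex replicates 4 and 5, hippocampus), and that of the tissues a term for treatment. The steps of the FPKM values gave whole reads for 100% of genes at a tolerance of 0.001 reads, and limma-voom on these reads was an alternative. Tested on simulated data, the 16-library fit (12633 genes) called 65% of 100 genes shifted by 0.5 on the log2 scale, and the tissue fit (12729 genes) 51%. The cortex fit called 31% at this shift and the hippocampus fit 18%. The test of the difference of EE effects called 0% at a shift of 0.5 and 38% at a shift of 1.

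The 10 genes and the lists of other splicing genes were chosen with earlier results of these data known. Named genes beyond the 10 are the 3 higher and 3 lower listed genes with the smallest p per comparison, and the 5 most and 3 least like Clk1; not every one of them is printed, and others are said to have been chosen after their values were seen. The tissue fit against cortex replicates 4 and 5 was added after seeing the data. The other alternatives were the scaling, the pseudocount (0.1), the minimum (5 FPKM), the length and GC trend, the replicate block and leaving out each library. GENCODE M21 supplied gene models for 93.3% of the 16250 symbols, and promoters from RefSeq (GRCm38.p6). Drawings used matplotlib 3.10.9.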

Additional observations from a re-analysis of the deposited data

Results flagged for a closer look

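Clk2 in EE cortex had 1 library far from the others: EE replicate 4 at 4.63 FPKM, while the other 4 had 2.34 to 2.97 FPKM. The gap to its nearest neighbour was 0.725 of the range of the group. Of 20 groups of 5 examined, 1 was marked in this way, and chance marks about 1 in 20.

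The EE minus SH difference of Clk3 had opposite signs in the 2 sets of cortex libraries. It was -0.21 in replicates 1 to 3, where all 3 EE libraries were below the SH mean, and 0.20 in replicates 4 and 5, where both EE libraries were above it. The first minus the second was -0.407 on the log2 scale, and this difference between the sets was not tested.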

How the results depend on the processing

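The counts of calls depended on the settings more than the values of the 10 genes did. In cortex (1 gene called), 3 genes passed after quantile normalization, 6 with the length and GC trend removed and 0 in replicates 1 to 3 alone. In replicates 4 and 5 alone 435 passed, and 0 passed with no term for the set. With 1 library of cortex left out 1 to 3 passed, and it was 3 without SH replicate 3. Over 16 libraries (42 called), 11 passed at a mean FPKM of at least 5 and 137 with the trend removed, and 17 to 228 with 1 library left out, 228 without cortex SH replicate 3 and 17 without cortex EE replicate 3 or SH replicate 4, 18 without cortex EE replicate 4, SH replicate 1 or SH replicate 5, 25 without cortex EE replicate 5, and 22, 23 and 19 without hippocampus EE replicate 1, EE replicate 3 and SH replicate 3; of the other splicing genes 0 passed at a mean of at least 5, and 0 to 1 with 1 library left out. By limma-voom the 16-library differences were -0.65 ± 0.08 for Clk1, -0.66 ± 0.09 for Cwc22 and 0.46 ± 0.09 for Tra2a (SE), a description as above. Between tissues (4661 called), 2744 passed at a mean of at least 5. After median-of-ratios scaling 4397 genes passed, with 3 of the 10 among them. Against cortex replicates 4 and 5, 3539 genes passed, with 2 of the 10 and 26 other splicing genes among them. Median-of-ratios scaling turned Clk3 to -0.031, Tra2b to -0.067 and Srsf3 to -0.11, cortex replicates 4 and 5 turned Tra2b to -0.14, Srsf5 to -0.49 and Srsf3 to -0.15, and leaving out 1 library gave Srsf3 -0.057 to 0.077. The cause was not tested, except that a higher minimum and fewer libraries test fewer values. Removing the trend leaves the tissue differences as they are by construction, since it is centred within each block, but it changes their SE. Srsf5 was then called as well, higher in hippocampus by 0.21 ± 0.08 (SE, limma, adjusted p = 0.0373).

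Replicate numbers were not shown to pair libraries. Deviations of EE and SH libraries of equal number correlated from -0.56 to 0.41 over 8 pairs, of which replicates 4 and 5 of cortex give 1 value by construction, and those of hippocampus and cortex from -0.03 to 0.27 over 6 pairs; among 3 candidates each, 7 of 12 libraries correlated best with their own number between EE and SH and 9 of 12 between tissues, a hint from the data and not from the design. With the replicate block, 5 genes passed over 16 libraries, and 0 of the other splicing genes. The 16-library differences were then -0.61 ± 0.07 for Clk1, -0.59 ± 0.10 for Cwc22 and 0.44 ± 0.10 for Tra2a (SE). The counts in cortex, hippocampus and between tissues stayed within 1.5 times. No block was fitted for the difference of EE effects.

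The depth limits Clk2 most, with 80 reads in its shallowest library. Isoforms, strain and litter are not resolved by these values.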

Other observations

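A pair of genes outside the lists, chosen after their values were seen, act on small nuclear RNAs and were among the 38 lower genes over 16 libraries. Mepce, which caps the 7SK RNA, differed by -0.44 ± 0.07 (SE; limma, adjusted p = 0.0135). Tut1, which adds uridines to U6 RNA of the spliceosome, differed by -0.42 ± 0.08 (limma, adjusted p = 0.0320).

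Of 8 nuclear-retained long noncoding RNAs listed beside the splicing genes, 6 were tested over 16 libraries and 0 passed by limma. Mirg was at -0.42 (limma, adjusted p = 0.196) and below the SH mean of its block in 8 of 8 EE libraries, and Malat1, Miat, Meg3, Rian and Snhg11 lay between 0.05 and 0.15. Summed over the list, these RNAs reached 203 to 382 FPKM in EE cortex against 201 to 364 FPKM in SH cortex, and 256 to 304 FPKM in EE hippocampus against 218 to 295 FPKM in SH hippocampus.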
